A study of Drosophila melanogaster with 30 samples.

Results

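Knockdown of Spt5 was set directly against knockdown of TH1 in the outer photoreceptors of the Drosophila melanogaster eye. The 6 libraries were chosen by their sample titles, 3 that name an Spt5 shRNA and 3 that name a TH1 shRNA, out of 30 in the series. Spt5 is a subunit of DSIF, the elongation factor it forms with spt4. TH1 is the fly NELF-D subunit of NELF, the negative elongation factor.

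Each library held nuclear RNA of outer photoreceptors, the cells that express the rhodopsin Rh1 (gene ninaE), from male flies on day 30. They were raised at 25 C, and the lights were on for 12 h and off for 12 h. Every fly carried Rh1-GFPKASH, a GFP tag on the nuclear envelope by which nuclei were enriched with an antibody, and Rh1-Gal4, which drove the short hairpin RNA (shRNA). The Spt5 shRNA and TH1 shRNA groups had 3 libraries each, and so had the groups set beside them, Cdk12 shRNA and LexA shRNA. The LexA hairpin is the control and targets a bacterial gene that flies lack. The Rh1 promoter limits both transgenes to the outer photoreceptors. Titles call the libraries biological replicates, and what they were separate in is not said further. The genotype label of Spt5 replicate 2 reads sh-Spt6, that of replicate 3 reads sh-Spt7, and the TH1 labels likewise run to sh-TH2 and sh-TH3. Libraries are named here by their titles.

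RNA polymerase II often stops shortly after it starts a gene, and DSIF and NELF together hold it there. The kinase P-TEFb releases it. NELF then leaves, while DSIF stays with the polymerase through the gene body and helps it to move and to process the transcript. The heat shock genes of the fly are the classic example of such paused genes. The contrast of the Spt5 and TH1 libraries asks how nuclear RNA differs between loss of a factor that acts in pausing and elongation and loss of one that acts in pausing.

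Gene counts were 14659278, 7535919 and 10361748 in the Spt5 libraries, against 6474537, 6210745 and 8140940 in the TH1 libraries. Values are given as CPM, read counts scaled to the size of each library, and differences as log2 fold changes of Spt5 over TH1. The Spt5 libraries did not resemble each other closely. A chi-square of their counts per gene was 233.9 between replicates 1 and 3 and 162.6 between replicates 2 and 3, against 14.5 between replicates 1 and 2. The same measure was between 9.885 and 13.58 in the TH1 pairs. On the second principal component of all libraries Spt5 replicates 1 and 2 lay at -78.4 and -99.1, while Spt5 replicate 3 lay at 6.74 and the TH1 libraries between 1.60 and 17.9. Counts of the Gal4 transgene stood at 773, 856 and 2765 CPM in the Spt5 libraries, against 4050, 2638 and 3227 CPM in the TH1 libraries. Reads aligned to several places came to 59.2, 94.5 and 76.9 per 100 gene counts in the Spt5 libraries, against 18.8, 22.6 and 18.3 in the TH1 libraries. The Cdk12 libraries had 72.9 to 82.6 such reads per 100. The counts of the Spt5 and Cdk12 libraries also came with 2 lines for transgenes, against 4 in every other library. The Cdk12 libraries serve below as a group with both features of the Spt5 libraries. In the contrast of Spt5 and TH1 these features and the knockdowns cannot be told apart.

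The messages of DSIF and NELF themselves did not separate the groups. Spt5 stood at 64.3, 56.1 and 58.3 CPM in the Spt5 libraries, against 64.2, 54.9 and 57.7 CPM in the TH1 libraries. The ranges overlapped, with a log2 fold change of 0.02 ± 0.18 (SE, n = 3 each; adjusted p = 0.98, edgeR). The LexA libraries had 74.4, 84.3 and 68.2 CPM of Spt5, above every library of both knockdowns. The Cdk12 libraries also lay below LexA, at 53.9, 58.2 and 62.3 CPM. The difference from LexA was -0.34 ± 0.18 in Spt5 and -0.36 ± 0.19 in TH1, and neither passed the test. TH1 stood at 10.6, 15.8 and 8.79 CPM in the Spt5 libraries, against 9.48, 9.17 and 10.0 CPM in the TH1 libraries. Again the groups overlapped, at 0.29 ± 0.26 (adjusted p = 0.62), and the LexA libraries reached from 9.03 to 14.2 CPM. The targeted genes therefore give no check of the labels in nuclear RNA.

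Among the partner subunits, spt4 had 6.07, 4.94 and 4.06 CPM in the Spt5 libraries, against 4.04, 5.24 and 5.76 CPM in the TH1 libraries (0.01 ± 0.27). Nelf-A, the most abundant NELF message, had 155, 142 and 146 CPM in the Spt5 libraries, against 150, 123 and 154 CPM in the TH1 libraries. Both groups lay below the LexA libraries for Nelf-A, which had 187, 221 and 196 CPM, without passing the test (-0.44 ± 0.19 in Spt5 and -0.50 ± 0.19 in TH1). The Cdk12 libraries lay below LexA for this gene too, at 162.2, 160.2 and 162.5 CPM. NELF-B and Nelf-E were low, at most 6.99 CPM in the Spt5 libraries and 5.90 CPM in the TH1 libraries. Their log2 fold changes were 0.23 ± 0.33 and -0.61 ± 0.40. Of the 2 DSIF and 4 NELF genes 0 were called by edgeR, 0 had an unadjusted p under 0.05, and DESeq2 called 0. Of all genes these shares were 7.62%, 21.4% and 12.4%, so counts on lists this short do not set the subunits apart.

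**Figure D1:**
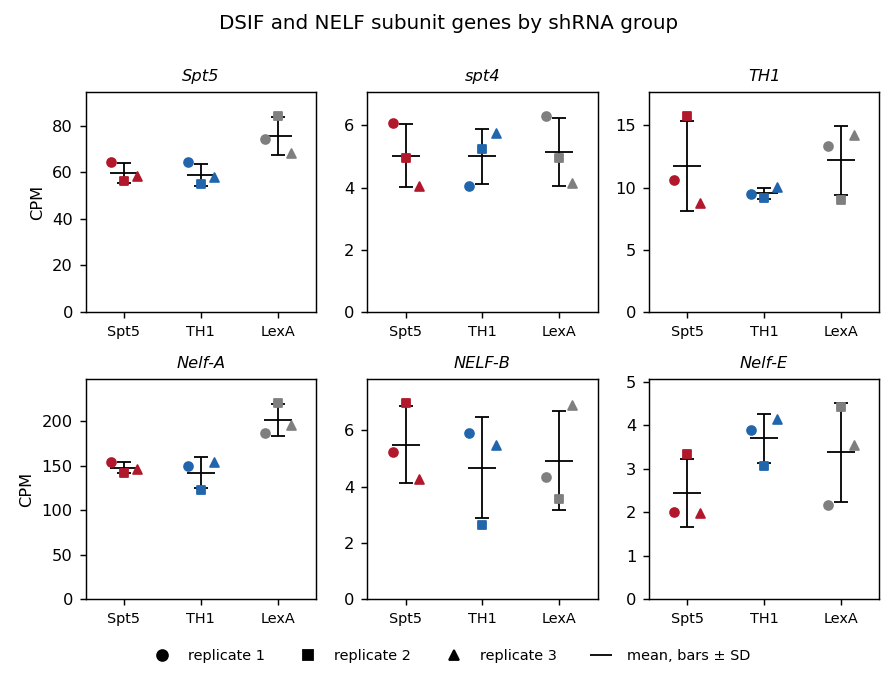
CPM of the 6 DSIF and NELF subunit genes in the Spt5, TH1 and LexA libraries (symbols, 1 per library; bars, mean ± SD, n = 3 each; each panel starts at 0). Spt5 and TH1 libraries overlap in every panel, and for Spt5 and Nelf-A all of them lie below the LexA libraries. For both genes so do the Cdk12 libraries, which are not drawn.

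Over the whole table most calls were higher in the Spt5 libraries. Of 14888 genes tested, 1134 were called at an adjusted p under 0.05, which is 7.62%. RNA of 899 genes was higher in the Spt5 libraries (6.04%) and RNA of 235 was lower (1.58%). An unadjusted p under 0.05 was found at 21.4% of genes, and the median over all tested genes was 0.02. DESeq2 called 1186 genes higher (7.97%) and 662 lower (4.45%). With the size factors of DESeq2 in edgeR the split was 665 higher and 295 lower, with a covariate for background reads 479 and 283, and without a filter on low counts 385 and 222. Each knockdown against LexA, with the LexA libraries shared by both, gave 2450 calls for Spt5 (16.5%; 1643 higher and 807 lower, or 5.42%) and 30 for TH1 (0.202%). Cdk12 against the same TH1 libraries gave 53 (0.356%; 0.175% higher and 0.181% lower).

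Spt5 replicates 1 and 2 carried most of the calls. Over the 899 higher genes the median distance from the mean of the TH1 libraries was 1.61, 1.49 and 0.18 on the log2 scale in Spt5 replicates 1, 2 and 3. Over the 235 lower genes it was -1.57, -1.67 and -0.65. Spt5 replicate 3 thus lay on the same side in both sets at the median, and nearer to TH1 than the other 2 did. That library helped to make the calls, so its side and the counts that follow are not independent of them. Spt5 replicate 3 exceeded every TH1 library at 445 of the 899 higher genes (2.99% of all tested). It lay under every TH1 library at 210 of the 235 lower ones (1.41%). At 178 of the higher genes it lay below every TH1 library. Over all tested genes the Spt5 libraries lay above the TH1 libraries at 8.30% and below them at 7.58%. Without Spt5 replicate 3 the contrast called 3104 genes (20.1%), 2037 higher (13.2%) and 1067 lower (6.92%). Without Spt5 replicate 1 it called 60 (0.389%; 0.253% higher and 0.136% lower), and without replicate 2 it called 52 (0.336%; 0.213% higher and 0.123% lower). With replicate 3 as the only Spt5 library it called 6 (0.0374%), all higher, a fit in which that library is assumed to vary like the other groups. Leaving out a TH1 library left 367, 338 and 104 calls for replicates 1, 2 and 3. A fit of only the 6 libraries called 4.

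Of the 93 named genes that were called, 19 were called in every fit that left out 1 library. They were 7SLRNA:CR32864, Crys, Srg3, Lsp2, BomS6, Pepck2, Npc2h, tobi, hzg, Trim9, Dpp10 and 5-HT7 on the higher side, and Cyp4p2, CG4839, Fhos, CG8089, asRNA:CR45822, asRNA:CR45835 and asRNA:TS15 on the lower. Each of the other named calls was lost without at least 1 library. Genes given below without a call were picked for their known role.

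**Figure D2:**
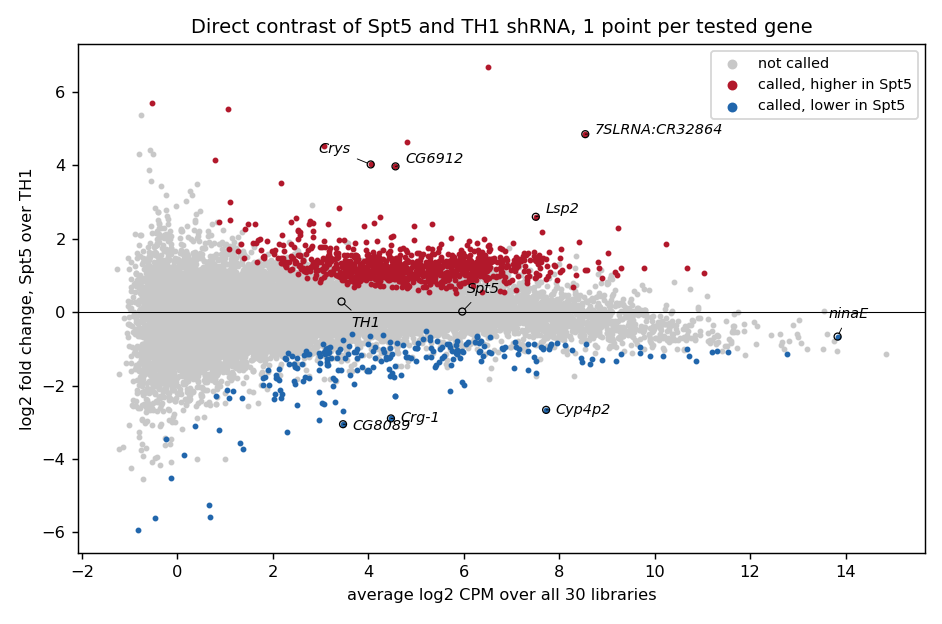
Log2 fold change of Spt5 over TH1 (vertical) against average log2 CPM over all 30 libraries (horizontal), with 1 point per tested gene and both axes on log2 scales. The 899 called higher genes outnumber the 235 called lower genes, and Spt5 (0.02) and TH1 (0.29) themselves are not called.

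Among the genes named for the size of their change, the largest increase was that of 7SLRNA:CR32864, the RNA of the signal recognition particle. It stood at 1591, 2706 and 339 CPM in the Spt5 libraries, against 81.9, 40.5 and 38.3 CPM in the TH1 libraries. No library overlapped (4.85 ± 0.73, adjusted p = 5.1e-04). The Cdk12 libraries had 203, 474 and 616 CPM and the LexA libraries 363, 106 and 528 CPM, so that the TH1 libraries were the lowest of the 4 groups. This RNA has near-identical copies in the fly, and its count is uncertain. RNaseMRP:RNA, a noncoding RNA that acts in processing of ribosomal RNA, had 477, 626 and 156 CPM in the Spt5 libraries, against 122, 78.2 and 76.5 CPM in the TH1 libraries (2.19 ± 0.44, adjusted p = 0.0064).

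The cytosolic ribosomal proteins rose nearly as a whole. Of 80 tested genes 68 were called higher in the Spt5 libraries and 0 lower, with a median log2 fold change of 1.40. Of all genes 6.04% were called higher. RpS15 reached 365, 405 and 130 CPM in the Spt5 libraries, against 77.7, 81.2 and 85.0 CPM in the TH1 libraries (1.88 ± 0.38, adjusted p = 0.0061). All 3 Spt5 libraries lay above the TH1 libraries. RpL17 and RpL14 rose by 1.73 ± 0.34 and 1.80 ± 0.37. The 3 Spt5 libraries lay above the 3 TH1 libraries at 64 of the 80 genes, against 8.30% of all tested genes. The summed level of the list was 17923, 17370 and 6680 CPM in the Spt5 libraries, against 5148, 4914 and 5527 CPM in the TH1 libraries. Spt5 replicate 3 is close to TH1 here and still above it. By the same sum the LexA libraries held 5089, 4140.5 and 6471 CPM, and the Cdk12 libraries 5760, 8383 and 8700 CPM. At the median, relative to the TH1 mean, Spt5 replicate 3 lay at 0.37 and LexA replicate 3 at 0.38. LexA replicates 1 and 2 lay at -0.02 and -0.36. The Cdk12 libraries also lay above TH1, by 0.19, 0.69 and 0.80 at the median, with 0.57 for the contrast.

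Some markers of other cells rose as well. Among markers of other neurons 6 of 18 were called higher and 0 lower (median 1.14), against 6.04% and 1.58% of all genes, and without Spt5 replicate 3 the count was 14 of 18, against 13.2% of all genes. The list summed to 4192, 3526 and 982 CPM in the Spt5 libraries, against 1730, 1397 and 1279 CPM in the TH1 libraries. VGlut, the vesicular transporter of glutamate, had 372, 312 and 89.3 CPM in the Spt5 libraries, against 100.1, 92.2 and 128 CPM in the TH1 libraries. It was called at 1.27 ± 0.32 (adjusted p = 0.019), although Spt5 replicate 3 lay below all 3 TH1 libraries. The transporter VGAT and the enzyme Gad1, which mark GABA neurons, and the acetylcholine transporter VAChT showed the same order of libraries, at 1.33 ± 0.34, 1.25 ± 0.33 and 1.06 ± 0.29. With Spt5 replicate 3 as the only Spt5 library these 4 genes had log2 fold changes between -0.18 and -0.29.

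Of the fat body and hemocyte markers 8 of 22 rose and 0 fell (median 0.97), against 6.04% of all genes higher. Without Spt5 replicate 3 it was 12 of 22, against 13.2%. Lsp2, a storage protein of the fat body, stood at 819, 639 and 233 CPM in the Spt5 libraries, against 77.8, 105 and 96.2 CPM in the TH1 libraries. The groups did not overlap (2.60 ± 0.38, adjusted p = 4.4e-04), and Spt5 replicate 3 was here the lowest Spt5 library but above every TH1 and LexA library. Lsp1beta, another storage protein, and AkhR, the receptor of adipokinetic hormone, rose by 1.84 ± 0.35 and 1.62 ± 0.37, and the hemocyte gene Hml by 1.25 ± 0.29. The list summed to 9704, 8857 and 3192 CPM in the Spt5 libraries, against 3278, 3198 and 3558 CPM in the TH1 libraries. By this sum Spt5 replicate 3 was the lowest of the 6. Glial markers rose at 5 of 17 genes (median 0.74), and at 11 without Spt5 replicate 3, against the same 6.04% and 13.2%. The blood-brain barrier receptor moody had 58.8, 58.3 and 26.9 CPM in the Spt5 libraries, against 20.8, 22.3 and 24.8 CPM in the TH1 libraries (1.08 ± 0.27, adjusted p = 0.017). The glial regulator repo and the glutamine synthetase Gs2 rose by 1.16 ± 0.33 and 0.95 ± 0.30. Spt5 replicate 3 lay below every TH1 library for repo and within their range for Gs2.

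Markers of other cells of the retina also gave calls. The lens protein gene Crys stood at 77.3, 72.6 and 15.3 CPM in the Spt5 libraries, against 4.04, 2.18 and 3.88 CPM in the TH1 libraries (4.03 ± 0.56, adjusted p = 2.7e-04). No library overlapped, and the Cdk12 and LexA libraries held 12.2 to 23.7 and 6.02 to 19.1 CPM. Among 15 markers of cone, pigment and corneal cells 5 rose and 0 fell (median 0.20), against 6.04% and 1.58% of all genes. Those that rose included the pigment transporter bw (1.54 ± 0.33) and the tryptophan oxygenase v (1.23 ± 0.26). For bw Spt5 replicate 3 lay within the TH1 range. Of the 15, 12 had log2 fold changes above 0, and the lowest was -0.58. The marker w overlapped, with 19.3, 20.4 and 15.2 CPM in the Spt5 libraries, against 19.7, 14.7 and 17.3 CPM in the TH1 libraries. Of 13 markers of inner photoreceptors 4 rose and 1 fell (median 0.71), against the same shares. Rh6 had 218, 198 and 67.5 CPM in the Spt5 libraries, against 50.8, 48.2 and 63.9 CPM in the TH1 libraries (1.57 ± 0.33, adjusted p = 0.0084). Rh3 and Rh4 rose by 1.42 ± 0.31 and 1.27 ± 0.31. The opsin gene Rh5 was not called, with 64.1, 69.4 and 25.5 CPM in the Spt5 libraries, against 29.5, 22.3 and 29.5 CPM in the TH1 libraries (0.97 ± 0.35, adjusted p = 0.091). The homeodomain gene oc, which acts in both classes of photoreceptors, is on the same list and was called lower. It stood at 139, 170 and 558 CPM in the Spt5 libraries, against 767, 650 and 761 CPM in the TH1 libraries (-1.33 ± 0.34, adjusted p = 0.019). Of 19 muscle markers 0 were called by edgeR, 1 had an unadjusted p under 0.05 and DESeq2 called 1. They summed to 6779, 8407 and 5115 CPM in the Spt5 libraries, against 7657, 6089 and 7864 CPM in the TH1 libraries.

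**Figure D3:**
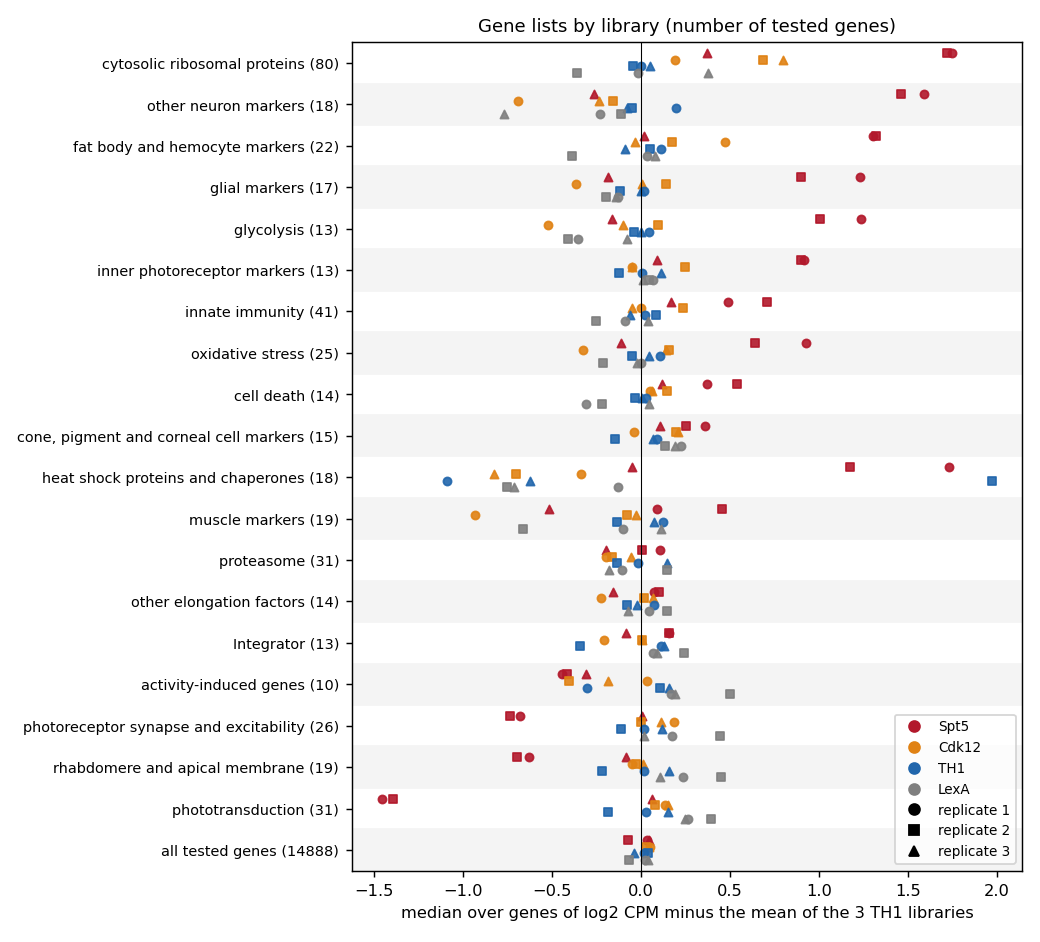
Median over the genes of each list of log2 CPM minus the mean of the 3 TH1 libraries (horizontal, log2 scale), with 1 symbol per library of the Spt5, Cdk12, TH1 and LexA groups. Spt5 replicates 1 and 2 stand apart at both ends, from 1.75 and 1.72 for ribosomal proteins to -1.45 and -1.39 for phototransduction, while Spt5 replicate 3 lies at 0.37 and 0.06.

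The marker lists and the phototransduction list moved in opposite directions in the same 2 libraries. Of the defining markers of these cells only the yolk protein gene Yp2 was at 0 in a library (TH1 replicate 3). In bulk libraries fewer nuclei of a type and less RNA per nucleus cannot be told apart. The part of the marker levels in the calls for other gene groups was not tested. With replicate 3 as the only Spt5 library the medians of the neuronal, glial and fat body lists were -0.28, -0.20 and -0.09.

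The phototransduction list had 2 of 31 genes called higher and 4 lower (1.58% of all genes were lower), with a median of -0.82. Without Spt5 replicate 3 it had 23 lower and 4 higher, against 6.92% and 13.2% of all genes, and a median of -1.39. The list summed to 32060, 33020 and 90846 CPM in the Spt5 libraries, against 103160, 82148 and 107460 CPM in the TH1 libraries. Spt5 replicate 3 fell inside the TH1 range and the other 2 were far below it. ninaE, the Rh1 opsin, stood at 8391, 7818 and 11989 CPM in the Spt5 libraries, against 15276, 13447 and 16011 CPM in the TH1 libraries. All Spt5 libraries were lower (-0.67 ± 0.20, adjusted p = 0.043), and Spt5 replicate 3 lay within the range of the LexA libraries, 11460.0 to 15110.0 CPM.

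Arr2, the arrestin that shuts off active rhodopsin, had 2716, 2834 and 4568 CPM in the Spt5 libraries, against 7273, 6471 and 8769 CPM in the TH1 libraries. It was called without overlap, at -1.15 ± 0.25 (adjusted p = 0.0093), and lay below every Cdk12 and LexA library too. The protein kinase C gene inaC and the gene stops were lower by similar amounts (-1.20 ± 0.36 each, adjusted p = 0.040 each). In Spt5 replicate 3 stops stood at 1580 CPM, within the TH1 range of 1494 to 2143 CPM. For inaC that library had 969 CPM, just below the lowest TH1 library at 1008 CPM. With replicate 3 as the only Spt5 library the log2 fold changes were -0.23 for inaC and -0.18 for stops. The channel gene trp had 2193, 2670 and 7587 CPM in the Spt5 libraries, against 9456, 4948 and 7237 CPM in the TH1 libraries. With Spt5 replicate 3 within the range of the TH1 libraries it did not pass the test (-0.80 ± 0.40, adjusted p = 0.25), and without that library it fell by 1.57 (adjusted p = 0.0034). The phospholipase norpA gave the same picture, at -1.01 ± 0.39 (adjusted p = 0.11) with Spt5 replicate 3 and -2.17 (adjusted p = 1.4e-05) without it. The 2 members called higher were santa-maria, a scavenger receptor for carotenoids, and Pld, phospholipase D (1.71 ± 0.36 and 0.75 ± 0.23).

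The rhabdomere list had 1 of 19 genes lower, the vesicle GTPase Rab6, and a median of -0.47. The synapse list had 1 lower and 2 higher of 26, and a median of -0.40. Of all genes 1.58% were lower and 6.04% higher. Without Spt5 replicate 3 the rhabdomere list had 10 lower and 2 higher, and the synapse list 16 lower and 5 higher. The shares of all genes were then 6.92% lower and 13.2% higher. CarT, which carries carcinine into photoreceptors for histamine recycling, had 93.1, 71.3 and 200.4 CPM in the Spt5 libraries, against 199, 231 and 311 CPM in the TH1 libraries (-1.02 ± 0.32, adjusted p = 0.046). Its value in Spt5 replicate 3 reached the lowest TH1 library. By contrast e, the enzyme of glia that makes carcinine, rose by 1.27 ± 0.33, as did the channel gene Ih (1.27 ± 0.35). Both rose only in Spt5 replicates 1 and 2. In Spt5 replicate 3 e stood at 13.7 CPM, within the TH1 range of 13.5 to 18.6 CPM. For Ih that library had 167 CPM, below the TH1 libraries at 200 to 259 CPM.

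**Figure D4:**
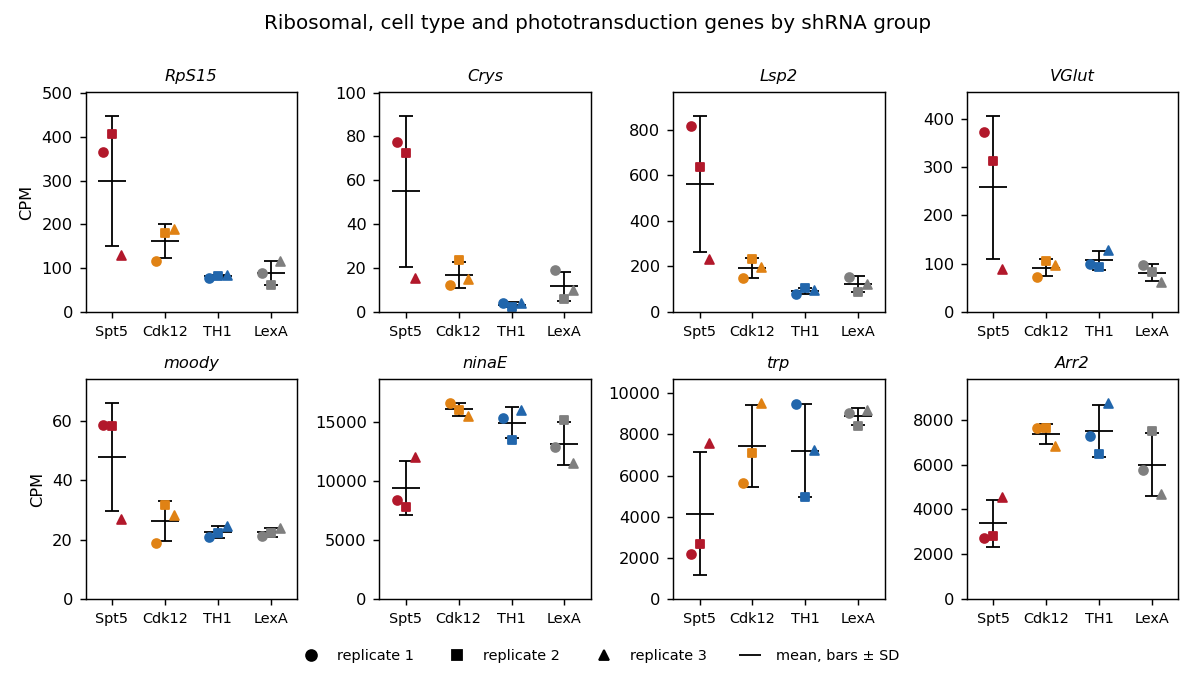
CPM (vertical, from 0) of a ribosomal protein gene, genes of lens, fat body, other neurons and glia, and 3 phototransduction genes in the Spt5, Cdk12, TH1 and LexA libraries (symbols, 1 per library; bars, mean ± SD, n = 3 each). Spt5 replicates 1 and 2 lie outside the other libraries in every panel. Spt5 replicate 3 lies with the other groups for VGlut, moody and trp, and within the LexA range for Crys and ninaE.

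Genes of immunity, cell death and oxidative stress gave some calls on the higher side, against 6.04% of all genes higher and 1.58% lower. Of 41 immune genes 8 rose and 0 fell (median 0.57). The bomanin BomS6, a secreted immune peptide, stood at 22.9, 55.4 and 28.4 CPM in the Spt5 libraries, against 5.59, 8.88 and 5.09 CPM in the TH1 libraries (2.44 ± 0.40, adjusted p = 0.0010). The Cdk12 libraries had 23.2, 40.3 and 30.2 CPM and the LexA libraries 5.60, 4.96 and 8.48 CPM. The antimicrobial peptide Dro rose by 2.58 ± 0.51 and pirk, an inhibitor of the Imd pathway, by 2.22 ± 0.52. The antifungal peptide gene Drs was called from a single library, with 1.89, 159 and 2.93 CPM in the Spt5 libraries, against 3.11, 3.06 and 0.937 CPM in the TH1 libraries. Of 14 cell death genes hid, wgn, Buffy and Debcl rose, by 0.97 ± 0.26, 1.03 ± 0.30, 1.25 ± 0.39 and 1.03 ± 0.32. For Buffy and Debcl Spt5 replicate 3 lay within the TH1 range. For hid it had 18.4 CPM, against at most 18.3 CPM in the TH1 libraries. With replicate 3 as the only Spt5 library the log2 fold changes were 0.03, 0.27, 0.13 and -0.02, in the same order. Of 25 oxidative stress genes 3 rose, Cyp6g1, Zw and Keap1. In each of these 3 genes Spt5 replicate 3 lay within the range of the TH1 libraries, for Cyp6g1 at 57.5 CPM, against 55.2 to 58.1 CPM. Without Spt5 replicate 3 the immune list had 14 higher and 0 lower, the cell death list 5 and 1, and the oxidative stress list 9 and 1, against 13.2% and 6.92% of all genes.

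Energy metabolism gave 2 calls, both higher, among 13 genes of glycolysis and neighbouring steps (median 0.77), against 6.04% of all genes higher. Without Spt5 replicate 3 it was 9 of 13, against 13.2%. With replicate 3 as the only Spt5 library the median of this list was -0.17. Pepck2, which makes phosphoenolpyruvate for gluconeogenesis, had 31.3, 20.6 and 10.0 CPM in the Spt5 libraries, against 4.51, 3.79 and 3.48 CPM in the TH1 libraries (2.40 ± 0.41, adjusted p = 0.0013). All 3 lay above the Cdk12 and LexA libraries also. The hexokinase Hex-A rose by 0.95 ± 0.26. The lipid binding gene Npc2h and the glucosidase gene tobi rose by 2.34 ± 0.36 and 2.05 ± 0.35 without overlap. Of 31 proteasome genes and 12 mitochondrially encoded genes 0 were called by edgeR. At an unadjusted p under 0.05 these counts were 0 and 3, and with DESeq2 they were 0 and 0. The shares of all genes were 7.62% by edgeR, 21.4% at an unadjusted p under 0.05 and 12.4% by DESeq2.

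Partners of DSIF and NELF in elongation gave few calls, on short lists, where 7.62% of all genes were called. Call counts on lists this short do not set these partners apart from all genes. Of 4 genes of the super elongation complex, 13 of Integrator and 14 other elongation factors, 0 were called by edgeR. At an unadjusted p under 0.05 the counts were 0, 0 and 3, and DESeq2 called 1, 0 and 2. Cdk9, the kinase of P-TEFb, stood at 10.0, 9.57 and 10.1 CPM in the Spt5 libraries, against 12.4, 13.1 and 11.2 CPM in the TH1 libraries, which put all Spt5 libraries just below the TH1 libraries without passing the test (-0.31 ± 0.23, adjusted p = 0.50). Its cyclin CycT overlapped, with 277, 253 and 236 CPM in the Spt5 libraries, against 218, 229.7 and 243 CPM in the TH1 libraries (0.15 ± 0.18). Of 5 PAF complex genes Ctr9 was called, with 90.3, 87.5 and 48.6 CPM in the Spt5 libraries, against 45.4, 40.2 and 51.3 CPM in the TH1 libraries (0.73 ± 0.19, adjusted p = 0.022). Spt5 replicate 3 lay within the TH1 range for Ctr9. Of 13 genes of 3-prime end processing and termination su(f), a cleavage stimulation factor, was lower, with 50.2, 49.1 and 81.8 CPM in the Spt5 libraries, against 139, 87.5 and 126 CPM in the TH1 libraries (-0.96 ± 0.25, adjusted p = 0.020).

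Heat shock genes, the model of paused transcription, differed more within the groups than between them. Of 18 genes 0 were called by edgeR, 1 had an unadjusted p under 0.05, and DESeq2 called 0. Of all genes these shares were 7.62%, 21.4% and 12.4%. Call counts on a list this short do not set heat shock genes apart from all genes. Hsp70Ba stood at 43.3, 41.7 and 20.9 CPM in the Spt5 libraries, against 1.24, 73.2 and 3.88 CPM in the TH1 libraries. A single TH1 library, replicate 2, was above all Spt5 libraries and the other 2 were far below. Hsp26 followed that order, with 40.9, 30.0 and 14.4 CPM in the Spt5 libraries, against 4.51, 54.3 and 5.49 CPM in the TH1 libraries, and so did Hsp68, with 141, 116 and 13.1 CPM in the Spt5 libraries, against 9.79, 151 and 8.97 CPM in the TH1 libraries. TH1 replicate 2 was the highest TH1 library at 14 of the 18 genes. The list median, relative to the TH1 mean, was 1.73, 1.18 and -0.05 in the Spt5 libraries, against -1.09, 1.97 and -0.62 in the TH1 libraries. The Hsp70 genes are near-identical copies, and their counts are uncertain. The heat shock factor gene Hsf stood at 81.9, 68.7 and 80.1 CPM in the Spt5 libraries, against 78.6, 80.1 and 92.7 CPM in the TH1 libraries.

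Activity-induced genes, another set known for quick release, gave 1 call among 10, against 7.62% of all genes, with a median of -0.48 and 3 genes above 0. An unadjusted p under 0.05 was found at 5 of them, DESeq2 called 3, and without Spt5 replicate 3 there were 1 higher and 3 lower. The called gene was hry, a repressor of the Hes family, which rose by 1.06 ± 0.30 (adjusted p = 0.029). Its value in Spt5 replicate 3, 31.3 CPM, lay within the TH1 range of 30.9 to 37.4 CPM. Hr38, a nuclear receptor gene induced by neuronal activity, had 153, 92.7 and 177 CPM in the Spt5 libraries, against 103, 645 and 670 CPM in the TH1 libraries. The value in TH1 replicate 1 lay among those of Spt5, and the difference of -1.75 ± 0.71 did not pass the test (adjusted p = 0.14). The LexA libraries also varied, from 330.2 to 962 CPM.

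Among the largest decreases Crg-1, named for its circadian regulation, stood at 5.36, 2.37 and 10.3 CPM in the Spt5 libraries, against 43.7, 49.6 and 41.7 CPM in the TH1 libraries. The 3 Spt5 libraries lay far below (-2.90 ± 0.56, adjusted p = 0.0052). In the Cdk12 libraries it was 20.3, 9.16 and 9.14 CPM and in the LexA libraries 47.5, 51.0 and 30.4 CPM, so that the Cdk12 libraries overlapped Spt5. Inx7, an innexin of gap junctions, had 4.13, 1.40 and 3.12 CPM in the Spt5 libraries, against 10.7, 10.9 and 14.3 CPM in the TH1 libraries (-2.02 ± 0.46, adjusted p = 0.012). The immunoglobulin gene dpr11 and the ESCRT gene CHMP2B fell by 1.35 ± 0.30 and 1.33 ± 0.33. The Cdk12 libraries held 2.18 to 5.79 CPM of Inx7, 98.5 to 125 CPM of dpr11 and 9.77 to 13.9 CPM of CHMP2B. In each of these genes the Cdk12 and Spt5 libraries overlapped. For dpr11 the contrast of Cdk12 over TH1 was called too, at -1.97 ± 0.30 (adjusted p = 6.1e-04, edgeR). The neuropeptide gene Capa fell by 1.53 ± 0.45, with 104 CPM in Spt5 replicate 3, against 20.6 and 20.9 CPM in the other 2. Osi2 and l(2)34Fd were lower in all 3 Spt5 libraries than in every TH1, Cdk12 and LexA library, at -1.79 ± 0.36 and -1.60 ± 0.32.

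Genes for which the Spt5 libraries stood apart from all 9 libraries of the Cdk12, TH1 and LexA groups were few. Of the 1134 calls, 85 were higher than in all 9 (0.571% of tested genes) and 58 were lower (0.390%). The following examples were chosen after their values were seen. Samuel stood at 77.3, 82.3 and 50.6 CPM in the Spt5 libraries, against 35.9, 32.9 and 28.9 CPM in the TH1 libraries (1.11 ± 0.22, adjusted p = 0.0054). The Cdk12 and LexA libraries held at most 29.8 and 25.5 CPM. The chitinase-like gene Idgf6 had 233, 196 and 81.4 CPM in the Spt5 libraries, against 62.0, 52.6 and 53.04 CPM in the TH1 libraries (1.61 ± 0.31). On the lower side asRNA:TS15 stood at 0.707, 1.29 and 1.61 CPM in the Spt5 libraries, against 5.13, 8.15 and 5.09 CPM in the TH1 libraries (-2.36 ± 0.36, adjusted p = 5.1e-04). Of the longest genes CG4839 had 5.01, 7.20 and 8.51 CPM in the Spt5 libraries, against 21.6, 21.8 and 24.2 CPM in the TH1 libraries (-1.72 ± 0.31, adjusted p = 0.0030). In both genes replicate 3 was the highest Spt5 library and still below every library of the other 3 groups.

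At 44 called genes the TH1 libraries lay above all Spt5, Cdk12 and LexA libraries (0.296% of tested genes), and at 39 they lay below all of them (0.262%). With or without a call, the TH1 libraries lay above them at 123 genes (0.826%) and below them at 99 (0.665%). The 4 genes called in the fit of only the 6 libraries are among them, and were picked for that after their values were seen. The first was CG6912. It stood at 61.6, 59.1 and 35.0 CPM in the Spt5 libraries, against 4.04, 3.20 and 2.68 CPM in the TH1 libraries (3.97 ± 0.45, adjusted p = 2.3e-05). The Cdk12 libraries had 39.3 to 41.6 CPM and the LexA libraries 26.2 to 37.7 CPM, so TH1 stood apart among these 4 groups. Among the libraries of other knockdowns it averaged 2.73 CPM in Top1, 6.12 CPM in Trl and 10.6 CPM in cnc. It lies on 3R at 15135138 to 15137004, and asRNA:CR45600, which spans 15136985 to 15140121 on the same strand and overlaps it, moved with it (2.40). Of the other 3 genes of that fit, CG8089 had 3.42, 1.83 and 3.88 CPM in the Spt5 libraries, against 32.6, 20.1 and 24.1 CPM in the TH1 libraries. CG8089 averaged 21.3 CPM in Trl, 25.8 CPM in Top1 and 18.5 CPM in cnc, against 25.6 CPM in TH1. In Spt6, Taf1 and dom the averages ran from 1.98 to 2.59 CPM. Then came CG13318, with 10.8, 14.8 and 12.7 CPM in the Spt5 libraries, against 70.4, 49.9 and 67.4 CPM in the TH1 libraries. The last was asRNA:CR45835, with 3.24, 3.22 and 4.63 CPM in the Spt5 libraries, against 19.1, 18.9 and 23.7 CPM in the TH1 libraries. In each the Spt5 libraries overlapped the Cdk12 and LexA libraries.

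The 30 genes called in TH1 against LexA, 12 higher (0.0806% of tested genes) and 18 lower (0.121%), show more of this. That comparison shares the TH1 libraries with the direct contrast, so the values are given side by side. hzg stood at 379, 337 and 407 CPM in the Spt5 libraries, against 126, 127 and 118 CPM in the TH1 libraries (1.60 ± 0.24, adjusted p = 5.1e-04). In the LexA libraries it was 381, 597 and 327 CPM, and the difference of Spt5 from LexA was -0.22 ± 0.23. The low level was shared, since hzg averaged 104 CPM in Trl and 95.5 CPM in Top1, against 124 CPM in TH1. The averages in cnc, Spt6, Taf1 and dom ran from 440 to 1934 CPM. The cytochrome P450 gene Cyp4p2 had 28.4, 32.4 and 76.3 CPM in the Spt5 libraries, against 138, 299.8 and 430.0 CPM in the TH1 libraries (-2.66 ± 0.37, adjusted p = 2.7e-04), with 32.5 to 56.0 CPM in the LexA libraries. The Cdk12 libraries, at 117, 178 and 203 CPM, overlapped TH1, and the libraries of dom, cnc and Top1 averaged 403, 340.2 and 297 CPM, against 289 CPM in TH1. Its neighbour Cyp4p1, 210 bases away on 2R, fell by 1.20 ± 0.27. The polymerase subunit gene Polr2K had 2.65, 3.87 and 3.59 CPM in the Spt5 libraries, against 13.2, 10.0 and 10.8 CPM in the TH1 libraries (-1.76 ± 0.34, adjusted p = 0.0052). It was the only 1 of 11 polymerase II subunit genes called, and it lies 306 bases from CG8089.

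Of the 30 genes 13 lay within 10000 bases of another of them in the reference annotation for BDGP6.54. On 3L the antisense RNA gene asRNA:CR45835 (7361639 to 7363598) lies inside Sec63 (7360561 to 7364366), which codes for a protein of the endoplasmic reticulum translocon, and asRNA:CR45822 starts at 7355717. All 3 were higher in TH1 than in LexA, by 2.75 ± 0.37, 1.01 ± 0.20 and 2.80 ± 0.37, and lower in Spt5 than in TH1, with log2 fold changes of -2.48 ± 0.34, -0.66 ± 0.20 and -2.95 ± 0.36. The strand setting of the counting was not given, so reads of asRNA:CR45835 and Sec63 cannot be told apart. Libraries of other knockdowns shared some of these levels, since asRNA:CR45835 averaged 18.7 CPM in Trl and 18.4 CPM in Top1, against 20.6 CPM in TH1. Over the 30 genes, no gene had all TH1 libraries beyond all 27 other libraries.

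At some of the 30 genes the Spt5 libraries were divided between the TH1 and the LexA level. Dhc98D, a dynein heavy chain gene, stood at 80.2, 63.5 and 341 CPM in the Spt5 libraries, against 50.03, 52.1 and 54.6 CPM in the TH1 libraries. Spt5 replicates 1 and 2 were near TH1, and replicate 3 lay among the LexA libraries at 350.4, 354 and 272 CPM. The contrast called it at 1.63 ± 0.38 (adjusted p = 0.012), and without Spt5 replicate 3 it was 0.46. Rgk2, of the RGK family of small GTPases, had 61.7, 40.7 and 15.6 CPM in the Spt5 libraries, against 50.5, 42.2 and 44.6 CPM in the TH1 libraries, with 11.2 to 16.2 CPM in the LexA libraries. snRNA:U7, which acts in 3-prime processing of histone messages, had 2.54, 1.29 and 10.4 CPM in the Spt5 libraries, against 0.932, 0.582 and 1.07 CPM in the TH1 libraries and 17.7, 9.21 and 18.5 CPM in the LexA libraries. Counted over the 30 genes, Spt5 replicates 1, 2 and 3 were nearer to the TH1 mean than to the LexA mean at 13, 13 and 7 genes. For Cdk12 replicates 1, 2 and 3 it was 5, 6 and 9 genes.

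Other genes of the 30 did not separate Spt5 from TH1 at all. Csgalnact, which starts chondroitin sulfate chains, stood at 11.7, 13.3 and 16.2 CPM in the Spt5 libraries, against 13.99, 16.2 and 12.99 CPM in the TH1 libraries (-0.07 ± 0.24). The LexA libraries had 72.8, 73.2 and 97.8 CPM, and the Cdk12 libraries 11.01 to 17.8 CPM. Mbs, the myosin binding subunit of myosin phosphatase, had 471, 398 and 381 CPM in the Spt5 libraries, against 428, 379 and 453 CPM in the TH1 libraries (-0.01 ± 0.17). Here too the LexA libraries stood alone, at 1013, 963 and 798 CPM.

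**Figure D5:**
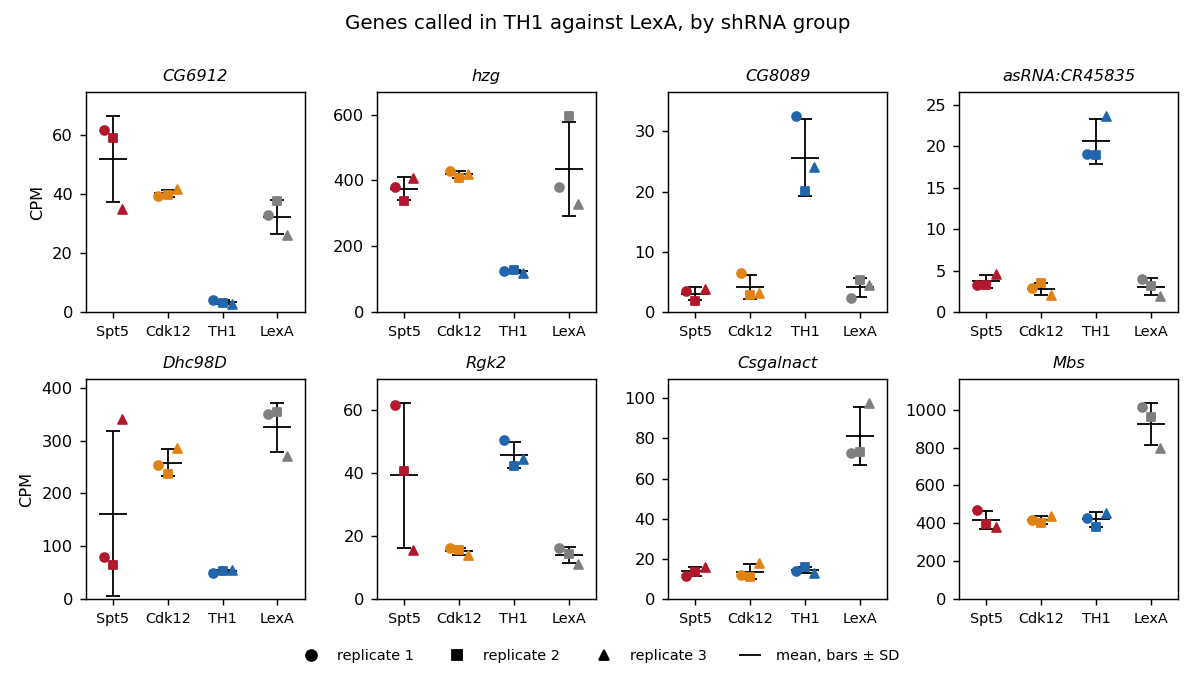
CPM (vertical, from 0) of 8 genes called in TH1 against LexA, in the Spt5, Cdk12, TH1 and LexA libraries (symbols, 1 per library; bars, mean ± SD, n = 3 each). In the upper row TH1 alone differs among these 4 groups, in Dhc98D and Rgk2 the Spt5 libraries divide with replicate 3 at the LexA level, and in Csgalnact and Mbs LexA alone differs among them.

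Since DSIF travels with the polymerase through the gene, calls were also set against gene span. Of 10 groups of equal size, the group of the shortest genes had 1.21% higher in Spt5, 2.02% lower and a median of -0.19. The group of the longest had 16.7% higher and a median of 0.25. The share called higher also moved with expression, at 0.0336% in the lowest of 5 groups by average CPM and 13.4% and 12.2% in the upper ones. Among the genes with an average log2 CPM of at least 3 the shares in 5 groups of span, short to long, were 13.4%, 8.60%, 8.46%, 12.5% and 18.7% higher and 4.88%, 3.41%, 2.02%, 1.40% and 2.02% lower. The medians were 0.07, 0.11, 0.10, 0.09 and 0.25, with those of Cdk12 over TH1 between -0.03 and 0.04. The group of at least 13993 bases thus had the highest share called higher, and the shortest genes the highest share called lower. Without Spt5 replicate 3 the longest of these 5 groups had the highest share both ways, with 41.4% higher, and 16.9% lower against 14.6% lower in the shortest. With replicate 3 as the only Spt5 library the median of the longest of the 10 groups was -0.08, against 0.12 in the shortest.

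Long genes named by the rule moved in both directions. Trim9, a ubiquitin ligase, had 49.4, 42.7 and 28.6 CPM in the Spt5 libraries, against 19.1, 14.4 and 10.8 CPM in the TH1 libraries (1.45 ± 0.24, adjusted p = 0.0010). The serotonin receptor gene 5-HT7 and Dpp10 rose by 1.90 ± 0.33 and 1.44 ± 0.24. The formin gene Fhos fell, with 181, 170.3 and 323 CPM in the Spt5 libraries, against 526, 439.7 and 626 CPM in the TH1 libraries (-1.24 ± 0.23, adjusted p = 0.0030), and CG32333 by 1.40 ± 0.28. In all 5 genes the Spt5 and TH1 libraries did not overlap. For Trim9 the TH1 libraries also lay below the LexA libraries, at 30.9 to 34.2 CPM, and for Fhos above them, at 291 to 348 CPM. Genes of 1 exon, of which 3017 were tested, had 64 calls higher and 61 lower (2.12% and 2.02%), against 6.04% and 1.58% of all genes. Noncoding RNA genes had 16 higher and 52 lower of 1936 (0.826% and 2.69%) and a median of -0.29. The lowest of the 5 groups by average CPM had a median of -0.25. With replicate 3 as the only Spt5 library the median of noncoding RNA genes was 0.16.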

How the data were processed

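Nuclear RNA-seq libraries were sequenced after depletion of ribosomal RNA. Per the submitters' processing notes the authors made the deposited counts per gene with Trimmomatic 0.39, HISAT2 and HTSeq on BDGP6. The sources used here do not state the strand setting. Summary lines and transgene lines were left out of library sizes. The annotation gave symbols for 17710 of 17807 gene identifiers, and 2 listed symbols found no match. R 4.3.3 and edgeR 4.0.16 were used: genes passing a minimum count of 10 (14888), TMM scaling, 1 quasi-likelihood fit of all 30 libraries with a mean per group, and Benjamini-Hochberg adjustment over all tested genes (called under 0.05). The SE was derived from the F statistic. The fit was tested on simulated data. Same-numbered Spt5 and TH1 libraries were not paired by their labels. Named genes were the DSIF and NELF subunits, ninaE, the 10 largest non-overlapping calls each way at an average log2 CPM of at least 3, up to 4 calls of each list each way, and 5 genes each way of TH1 against LexA. The largest calls and those of TH1 against LexA left out symbols that are bare CG or CR numbers or begin with mir, tRNA, snRNA, snoRNA, scaRNA, lncRNA, asRNA or an rRNA name. The libraries, gene lists and comparisons were chosen with earlier results of these data known. Replicates may be technical in part, so p-values measure the spread between libraries. That spread, and the SE, came from all 30 libraries and not from the 6 contrasted libraries alone. With only those 6 the contrast called 4 genes, against 1134. DESeq2 1.42.0 and the other alternatives are described in the closing section.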

Additional observations from a re-analysis of the deposited data

Results flagged for a closer look

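Reads aligned to several places were more frequent in the Spt5 libraries than in any TH1 or LexA library. They came to 59.2, 94.5 and 76.9 per 100 gene counts in Spt5 replicates 1, 2 and 3, against at most 22.6 in the TH1 and LexA libraries. The Cdk12 libraries had 72.9 to 82.6 and gave 53 calls against TH1. The part of these reads in the Spt5 calls was not tested.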

How the results depend on the processing

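The count of calls for Spt5 against TH1 was 1848 with DESeq2, 607 without a filter on low counts, 4 with only the 6 libraries, and 6 without both Spt5 replicates 1 and 2, a setting chosen after seeing the data. Leaving out 1 library gave 52 to 3104. With the replicate number as a block the count was 1226, and 1 with the block and only the 6 libraries; same-numbered libraries had deviation correlations of 0.077, -0.186 and -0.132. Leaving out 1 library gave 244 to 3726 calls for Spt5 against LexA, 19 to 23 for TH1 against LexA and 30 to 48 for Cdk12 against TH1. For TH1 against LexA DESeq2 called 82 and a minimum count of 50 left 46, and for Cdk12 against TH1 DESeq2 called 118. The covariate for background reads left 762 calls for Spt5 against TH1 and moved the median of all genes to 0.14, against 0.02.

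Some log2 fold changes turned sign, called genes such as hry and VGlut included, and the cause was not tested. Under DESeq2, its size factors in edgeR, the covariate, a minimum count of 50, no filter, only the 6 libraries and the block with those 6, Spt5 was -0.065, -0.066, -0.12, -0.041, -0.10, -0.012 and -0.011, and spt4 was -0.081, -0.089, -0.14, -0.061, -0.13, -0.027 and -0.027. Nelf-A was -0.025 with DESeq2, -0.025 with its size factors, -0.071 with the covariate and -0.064 without a filter. Without both Spt5 replicates 1 and 2 the values were -0.019 for Spt5, -0.31 for spt4, -0.13 for TH1, -0.14 for NELF-B, -0.15 for hry, -0.028 for Keap1, -0.018 for Debcl, -0.21 for e, -0.43 for Ih, -0.20 for sli, -0.19 for repo, -0.26 for VGlut, -0.29 for VGAT, -0.18 for Gad1, -0.26 for VAChT, 0.16 for Csgalnact and -1.12 for dpr21. Leaving out 1 library gave -0.058 to 0.075 for Spt5, -0.17 to 0.14 for spt4, -0.013 to 0.46 for TH1, -0.015 to 0.12 for Nelf-A, -0.029 to 0.42 for NELF-B, -0.0033 to 5.08 for Drs, -0.72 to 0.17 for Rgk2, -0.20 to 0.049 for Csgalnact and -0.13 to 0.051 for Mbs.

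Of the 93 named genes called in the contrast, 19 were called in every fit that left out 1 library, and 0 of the 103 named genes under all 15 alternatives. Depth limits calls of genes at a few counts.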
